A study of Mus musculus with 8 samples.

Results

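The immunoglobulin constant region genes were examined as a group of 10: the heavy-chain genes Ighm, Ighd, Ighg1, Ighg2b, Ighg2c, Ighg3 and Igha, the kappa light-chain gene Igkc, and the lambda light-chain genes Iglc1 and Iglc2. They were chosen by name from the 54532 genes of the count table, and all 10 were among the 17138 genes with enough counts to be tested. The table holds 3 further constant genes, Ighe, Iglc3 and Iglc4, which are described beside them.

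Whole lungs of CC-LR mice, a model of K-ras mutant lung adenocarcinoma, were profiled by RNA-seq at 14 weeks of age in a Control group (n = 4) and a TTI-101 group (n = 4), each mouse giving 1 library, to ask how the drug alters gene expression in the lung. TTI-101 is a small-molecule inhibitor of STAT3, a transcription factor activated by cytokine receptors, and treated mice received it for 4 weeks. Mice of both groups carried CCSP Cre and LSL-K-ras G12D on a C57BL/6 background. Cre is driven from the club cell secretory protein locus, so that mutant K-ras is expressed in the lung epithelium and lung tumors form. The route of TTI-101, the vehicle of the Control group and the sex of each of these 8 mice were not given in the sources used here. Libraries held between 16075855 and 26873509 counts, with similar depths in both groups and the deepest library in mouse 1 of each. The defining lung genes were abundant in every library, with summed levels of 8 lung markers of 37000 to 88500 CPM (counts scaled to a common library size by the TMM method). Control mouse 4 was an extreme on the first principal component of all genes (101, other mice -39.3 to 17.9) and had 5.56% mitochondrial counts, against 2.01% to 2.85% elsewhere.

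An antibody is made of heavy chains paired with light chains, and the constant region of the heavy chain sets the isotype. Naive B cells make IgM and IgD from the same primary transcript by alternative splicing. After stimulation, class switch recombination joins the variable exon to a downstream constant gene, giving IgG, IgE or IgA, and the DNA in between is removed from that allele. A plasma cell transcribes its antibody genes at a far higher rate than a resting B cell, so that a small number of plasma cells can supply much of the immunoglobulin RNA of a tissue. In mucosal tissue such as the airway, IgA is joined by the J chain and carried across the epithelium by the polymeric immunoglobulin receptor. Each B cell uses either a kappa or a lambda light chain, and kappa predominates in mice. In whole-lung RNA, fewer cells of a type and less RNA per cell cannot be told apart.

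The heavy-chain constant genes lie in a single cluster on the minus strand of chromosome 12 of GRCm38, in the order of transcription Ighm (113418558 to 113422730), Ighd (113406604 to 113416324), Ighg3 (113356224 to 113361232), Ighg1 (113325240 to 113330523), Ighg2b (113302965 to 113307933), Ighg2c (113285325 to 113288932), Ighe (113269260 to 113273248) and Igha (113254830 to 113260236). Igkc lies on chromosome 6 (70726435 to 70726966, plus strand). Iglc1 (19061618 to 19062071) and Iglc2 (19198396 to 19200351) lie on the minus strand of chromosome 16. The first 90 bases of the first constant domain exon (CH1) of Ighm (chr12:113422641-113422730) and Igha (chr12:113260147-113260236), taken from the GENCODE M21 transcripts and written 5′ to 3′ on the minus strand, are shown because the shares of these genes carry the main result, and they have no capitals.
Ighm: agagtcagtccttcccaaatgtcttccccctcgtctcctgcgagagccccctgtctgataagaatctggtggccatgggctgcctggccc
Igha: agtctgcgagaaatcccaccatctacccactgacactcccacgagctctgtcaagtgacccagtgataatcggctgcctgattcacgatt

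The IgG genes are similar in sequence, which bears on how well their counts can be separated. The first 90 bases of CH1 are shown for the 4 IgG genes, with the 29 positions that are not the same in all 4 in capitals. They are at chr12:113330434-113330523 for Ighg1, chr12:113307844-113307933 for Ighg2b, chr12:113288843-113288932 for Ighg2c and chr12:113361143-113361232 for Ighg3, on the minus strand of GRCm38.
Ighg1: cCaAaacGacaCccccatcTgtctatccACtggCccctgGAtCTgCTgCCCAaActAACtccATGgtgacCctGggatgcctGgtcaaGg
Ighg2b: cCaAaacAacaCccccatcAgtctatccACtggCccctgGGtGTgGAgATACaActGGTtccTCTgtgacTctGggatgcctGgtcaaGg
Ighg2c: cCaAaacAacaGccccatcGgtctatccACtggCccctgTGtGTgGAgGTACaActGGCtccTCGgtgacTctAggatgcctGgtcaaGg
Ighg3: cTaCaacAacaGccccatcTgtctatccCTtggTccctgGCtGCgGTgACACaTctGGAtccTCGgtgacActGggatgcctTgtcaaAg
Over the whole CH1 exon of 291 bases, identity between pairs of IgG genes ranged from 78.4% for Ighg2c and Ighg3 to 88.3% for Ighg1 and Ighg2b. Of all stretches of 50 bases in the annotated transcripts, 5.49% of those of Ighg2c, 4.15% of Ighg2b, 1.58% of Ighg3 and 0.393% of Ighg1 also occur in another IgG gene. None of 100 bases do, and Ighm, Ighd, Igha, Igkc and Iglc1 share no stretch of 50 bases with another constant gene.

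The lambda constant genes are shown in the same way, since Iglc2 and Iglc3 are closer over their constant region than any pair of IgG genes over CH1. The windows are chr16:19061982-19062071 for Iglc1, chr16:19198763-19198852 for Iglc2 and chr16:19065592-19065681 for Iglc3, on the minus strand, with the 21 positions not common to all 3 in capitals.
Iglc1: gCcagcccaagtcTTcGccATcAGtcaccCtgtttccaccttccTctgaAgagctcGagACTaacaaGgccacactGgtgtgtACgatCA
Iglc2: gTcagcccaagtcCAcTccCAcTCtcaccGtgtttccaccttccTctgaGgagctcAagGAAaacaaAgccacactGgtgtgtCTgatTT
Iglc3: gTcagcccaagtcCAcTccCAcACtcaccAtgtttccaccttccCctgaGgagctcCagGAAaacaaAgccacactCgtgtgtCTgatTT
Aligned over the constant region, Iglc2 and Iglc3 were 96.5% identical and Iglc1 and Iglc2 73.5%. Of the stretches of 50 bases of Iglc2, 10.5% also occur in Iglc3, so that the split of reads between these genes is less certain than for the other members. Gm30211, a long noncoding RNA gene on the strand of Igkc, overlaps it with 6 to 99 counts, and 2010309G21Rik, on the strand opposite to Iglc1, overlaps it with 0 to 18 counts.

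Mean levels of IgM and IgD RNA were higher in treated lungs, the mean IgA level was nearly equal, and mean levels of Ighg1, Ighg2b and Ighg2c were set by 1 mouse in each group. The heavy-chain mixture differed: IgM made up 55.2% ± 4.90 of heavy-chain counts in treated lungs against 30.9% ± 4.83 in Control lungs, and IgA 21.8% ± 8.91 against 47.6% ± 6.51 (SD, n = 4 in each group). No constant gene passed an adjusted p under 0.05 in edgeR's quasi-likelihood test (0 of 10), a threshold passed by 0% of all genes tested. At an unadjusted p under 0.05, Ighm, Ighd and Iglc2 were called, or 3 of 10 members, against 6.61% of all genes tested. All 3 were higher in treated lungs, a direction called for 3.02% of genes, while 0 members were called lower, against 3.58%. In 2 members, Ighm and Iglc2, every treated mouse lay above every Control mouse in CPM, which was so for 1.53% of all genes tested, and in 0 members did every treated mouse lie below, against 1.43%. In DESeq2, 0 of the 7 members with an adjusted p passed 0.05, against 0.0126% of its genes. The log2 fold change of treated over Control lungs (log2FC, with its standard error as SE) was positive for 7 of the 10 members, with a median of 0.405, against 50.6% of all genes tested and a median of 0. Without Control mouse 4 the count at an unadjusted p under 0.05 was 3, where 531 of 17548 genes tested were called. Without Control mouse 1 it was 5, where 2393 of 17406 genes tested were called, against 1132 of 17138 with all mice.

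**Figure D1:**
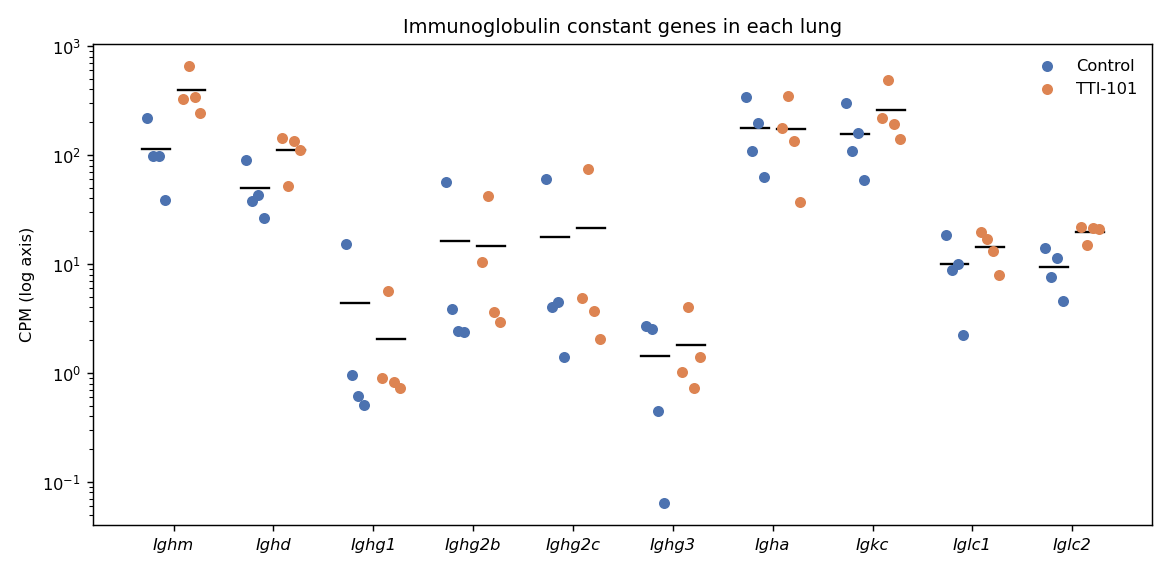
CPM of each constant gene on a log axis, where points are mice in the order 1 to 4 within each group and black lines are group means (n = 4). The 4 treated mice lie above the 4 Control mice for Ighm and Iglc2, while the means of Ighg1, Ighg2b and Ighg2c are carried by Control mouse 1 and TTI-101 mouse 2.

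Ighm encodes the mu chain of IgM, the first antibody a B cell makes. Its levels in Control mice 1 to 4 were 219, 98.3, 98.8 and 38.6 CPM, and in treated mice 1 to 4 they were 327, 659, 341 and 243 CPM. Control mouse 1 was the highest Control and TTI-101 mouse 2 the highest of all, and the groups did not overlap. The log2FC was 1.78 (SE 0.47, unadjusted p = 0.0035 and adjusted p = 0.657 in edgeR), and with 1 mouse left out it ranged from 1.42 to 2.32. On average treated lungs held 392 ± 183 CPM (SD, n = 4) against 114 ± 75.9 CPM (SD, n = 4).

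Ighd encodes the delta chain of IgD, which is carried with IgM on mature naive B cells. Control mice 1 to 4 had 90.7, 38.1, 43.0 and 26.5 CPM and treated mice 1 to 4 had 143, 52.5, 135 and 110 CPM. TTI-101 mouse 2, highest for Ighm, was the lowest treated mouse for Ighd and lay below Control mouse 1, while the other 3 treated mice lay above all Controls. The log2FC was 1.15 (SE 0.39, unadjusted p = 0.015 and adjusted p = 0.657 in edgeR), with a range of 0.95 to 1.62 when 1 mouse was left out.

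Igha encodes the alpha chain of IgA, the main antibody of mucosal secretions. Its levels were 340, 110, 197 and 63.3 CPM in Control mice 1 to 4 and 178, 349, 133 and 37.2 CPM in treated mice 1 to 4. The highest values were in Control mouse 1 and TTI-101 mouse 2, the lowest in mouse 4 of each group, and the groups overlapped over almost their whole range. Control lungs averaged 178 ± 122 CPM (SD, n = 4) and treated lungs 175 ± 131 CPM (SD, n = 4), and the log2FC was -0.03 (SE 0.62, edgeR adjusted p = 0.994). The sign depended on single mice, from -0.61 to 0.50 with 1 mouse left out.

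The IgG genes encode the gamma chains, of which Ighg2c is the IgG2a counterpart carried by C57BL/6 mice. Ighg2c had 60.3, 4.01, 4.44 and 1.41 CPM in Control mice 1 to 4 and 4.86, 75.0, 3.67 and 2.07 CPM in treated mice 1 to 4. Ighg2b had 56.8, 3.83, 2.44 and 2.37 CPM in Control and 10.4, 41.7, 3.61 and 2.92 CPM in treated mice. In both genes Control mouse 1 and TTI-101 mouse 2 stood an order of magnitude above most of the other mice, and the groups overlapped. The log2FCs were 0.27 (SE 1.38) for Ighg2c and -0.18 (SE 1.12) for Ighg2b, with adjusted p of 0.963 and 0.971 from edgeR. Without Control mouse 1 they were 2.69 and 2.34, and without TTI-101 mouse 2 they were -2.31 and -1.53, so that the sign of each was set by a single mouse.

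Ighg1 and Ighg3 were lower still. Ighg1 had 15.4, 0.956, 0.610 and 0.512 CPM in Control mice 1 to 4 and 0.904, 5.70, 0.834 and 0.730 CPM in treated mice 1 to 4, with the same 2 mice on top. Ighg3 had 74, 42, 8 and 1 counts in Control and 27, 67, 13 and 23 counts in treated mice. Their log2FCs were -1.14 (SE 1.11) and 0.28 (SE 0.84), with adjusted p of 0.760 and 0.931 from edgeR. Without Control mouse 1 that of Ighg1 was 1.54, and without TTI-101 mouse 2 that of Ighg3 was -0.46. Ighe, the gene of the IgE heavy chain, was not tested because of low counts. It had 3 counts in Control mouse 1, 27 in TTI-101 mouse 2, 1 in TTI-101 mouse 4 and 0 in the other 5 mice, which allows IgE up to 0.0170% to 0.145% of their heavy-chain counts.

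Igkc is the single kappa constant gene and was the light-chain gene with the most counts in every mouse. Control mice 1 to 4 had 299, 109, 158 and 59.1 CPM and treated mice 1 to 4 had 217, 489, 192 and 139 CPM. The groups overlapped, with TTI-101 mouse 2 alone above Control mouse 1. The log2FC was 0.73 (SE 0.49, unadjusted p = 0.17 and adjusted p = 0.680 in edgeR). Its range with 1 mouse left out was 0.23 to 1.25, and the unadjusted p was lowest at 0.0197 without Control mouse 1.

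Of the lambda genes, Iglc2 had 14.0, 7.59, 11.4 and 4.61 CPM in Control mice 1 to 4 and 21.9, 15.0, 21.4 and 20.9 CPM in treated mice 1 to 4. The groups did not overlap, although TTI-101 mouse 2 lay only just above Control mouse 1. The log2FC was 1.07 (SE 0.31, unadjusted p = 0.0059 and adjusted p = 0.657 in edgeR), and its range with 1 mouse left out was 0.85 to 1.33. Its near copy Iglc3, with which it shares sequence, had a log2FC of 0.80 (SE 0.32, unadjusted p = 0.029 and adjusted p = 0.657 in edgeR), with overlapping groups. Iglc1 had 18.6, 8.85, 9.93 and 2.24 CPM in Control and 19.8, 16.8, 13.1 and 7.91 CPM in treated mice, with overlapping groups. Its log2FC was 0.53 (SE 0.50, edgeR adjusted p = 0.752), and with the replicate number as a block it was 0.76 (unadjusted p = 0.0381 and adjusted p = 0.577 in edgeR). Iglc4 had 0 counts in all Control mice and at most 2 in a treated mouse.

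**Figure D2:**
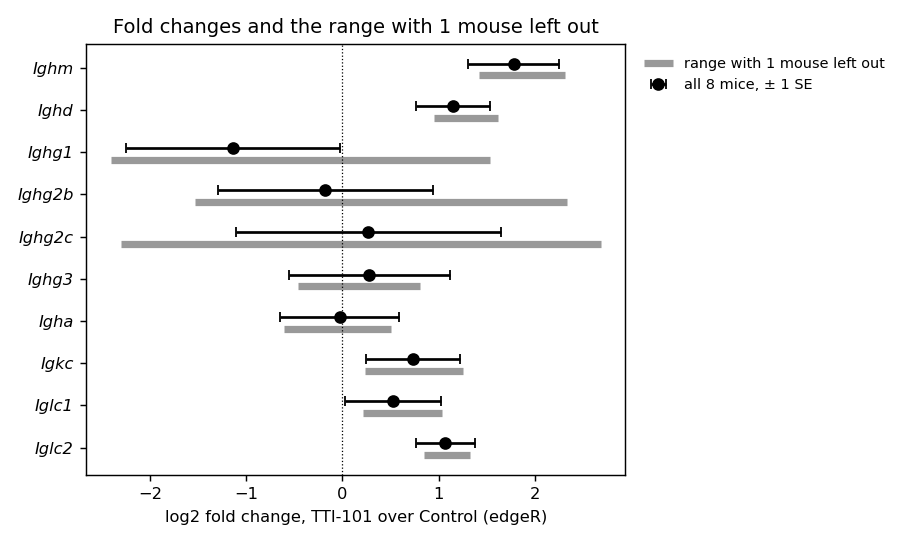
Log2FC (TTI-101 over Control) of each constant gene from edgeR, with points and bars for all 8 mice ± 1 SE and gray bars for the range when 1 mouse was left out. The gray bars of Ighm, Ighd, Igkc, Iglc1 and Iglc2 stay above 0, while those of the IgG genes and Igha cross it.

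The mean levels of different genes were put in order as CPM per kilobase of the gene's annotated exons. In Control lungs the order was Igkc at 294 ± 195 (SD, n = 4), Igha at 66.6 ± 45.6, Ighm at 60.3 ± 40.2, Ighd at 26.1 ± 14.9, Iglc1 at 21.8 ± 14.8, Iglc2 at 15.4 ± 6.77, Ighg2c at 13.2 ± 21.5, Ighg2b at 6.11 ± 10.1, Ighg1 at 1.68 ± 2.83 and Ighg3 at 0.571 ± 0.547. Igkc exceeded Igha by more than the SD of either gene, but that SD is between mice, while all genes were measured in the same mice. Within each Control mouse, Igkc exceeded Igha, Ighm exceeded Ighd, Ighd exceeded Iglc1, Ighg2c exceeded Ighg2b and Ighg2b exceeded Ighg1. The other neighbors in this order changed places between mice. In treated lungs Ighm, at 208 ± 96.9 (SD, n = 4), stood above Igha at 65.4 ± 48.9 in every mouse. Ighd, at 58.0 ± 21.5, stood above Igha in TTI-101 mice 1, 3 and 4 and below it in TTI-101 mouse 2. Igkc was again first at 487 ± 295. The annotated length counts the membrane and secreted ends together, so the order depends on the length used. Transcripts of Igha, for example, range from 1100 to 2540 bases, and those of Ighm from 1493 to 1698 bases.

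The composition of heavy chains was then compared as shares of the summed counts of the 7 heavy-chain members, which does not depend on how the library was scaled. These shares were not corrected for gene length. The IgM share was 27.9%, 38.1%, 28.5% and 29.1% in Control mice 1 to 4 and 49.1%, 55.5%, 55.2% and 61.1% in treated mice 1 to 4. All treated mice lay above all Control mice, by 24.3 percentage points between the means (two-sided exact permutation p = 0.0286, or 0.105 once adjusted by Benjamini-Hochberg for the 11 shares and ratios compared). With 4 mice a group no smaller exact p can be had. The IgA share was 43.3%, 42.7%, 56.8% and 47.7% in Control and 26.8%, 29.4%, 21.6% and 9.35% in treated mice. Here every treated mouse lay below every Control mouse, with a difference of -25.8 percentage points (exact permutation p = 0.0286, adjusted 0.105). The sampling error of these shares was small, since no 95% Wilson interval was wider than 4.30 percentage points, although such intervals cover counting error only. Per kilobase of gene length the IgM share was 35.9% ± 5.28 in Control and 58.9% ± 3.98 in treated lungs (SD, n = 4 each). The IgA share per kilobase was 39.2% ± 6.29 in Control and 16.5% ± 6.96 in treated lungs.

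**Figure D3:**
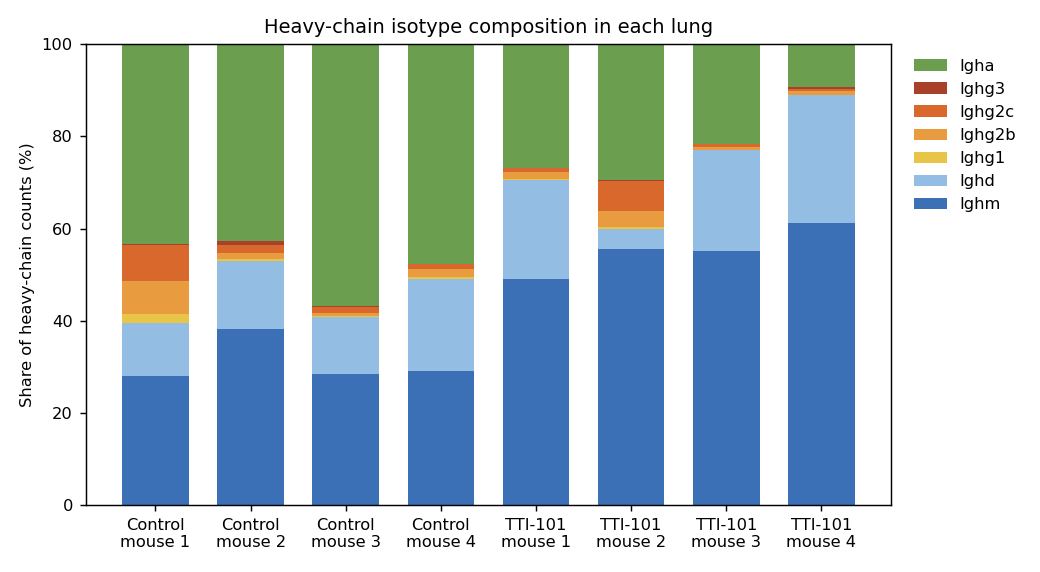
Share of each heavy-chain gene in the summed heavy-chain counts of each mouse, in percent, with the IgM and IgD genes at the bottom and IgA on top. IgM spans 27.9% to 38.1% in Control and 49.1% to 61.1% in treated mice, while IgA spans 42.7% to 56.8% and 9.35% to 29.4%.

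The class-switched share, that is IgG and IgA together, was 60.5%, 47.1%, 59.1% and 50.9% in Control mice 1 to 4 and 29.4%, 40.1%, 23.0% and 11.1% in treated mice 1 to 4. The groups did not overlap and differed by -28.5 percentage points (exact permutation p = 0.0286, adjusted 0.105). Shares of IgM, IgA and switched chains are parts of the same total, so that they are not separate pieces of evidence. The lower IgA share stood beside a nearly equal mean IgA level and a higher mean Ighm level. Leaving out each mouse in turn gave differences of 22.3 to 26.7 points for IgM, -28.4 to -21.7 points for IgA and -33.2 to -23.6 points for switched chains, without Control mouse 4 23.7, -25.8 and -29.7 points. With 3 against 4 mice the smallest possible exact p is 0.0571, so that these tests could not pass 0.05.

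The IgD share was 11.5%, 14.8%, 12.4% and 20.0% in Control and 21.5%, 4.42%, 21.8% and 27.7% in treated mice. TTI-101 mouse 2 was the lowest of all 8 and the other treated mice were the highest, so that the means of 14.7% ± 3.78 (SD, n = 4) and 18.9% ± 10.0 (SD, n = 4) did not differ beyond the spread (exact permutation p = 0.486, adjusted 0.668). The difference was 9.01 points without TTI-101 mouse 2 (exact permutation p = 0.0571, the smallest possible) and 1.24 points without TTI-101 mouse 4. The IgG shares had exact permutation p of 0.314 to 0.771. Ighg2c was the largest of them in the mean of each group, but not in every mouse. It made up 7.68% in Control mouse 1 and 6.32% in TTI-101 mouse 2, against 0.520% to 1.55% in the other 6 mice. Those mice show the same separation for Ighg2b, at 7.23% and 3.52% against 0.585% to 1.78%.

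The balance between chains was described by 3 ratios of counts. The ratio of kappa to lambda counts, Igkc over Iglc1 and Iglc2, was 9.17, 6.62, 7.42 and 8.64 in Control mice 1 to 4 and 5.20, 15.4, 5.57 and 4.83 in treated mice 1 to 4. Treated mice 1, 3 and 4 lay below every Control mouse and TTI-101 mouse 2 lay above every Control mouse. On the log2 scale Control lungs averaged 2.98 ± 0.213 and treated lungs 2.77 ± 0.789 (SD, n = 4 each, exact permutation p = 0.657, adjusted 0.723). The log2 difference of -0.214 was -0.606 without TTI-101 mouse 2 (exact permutation p = 0.0571, the smallest possible) and -0.0481 without TTI-101 mouse 4. The constant genes alone leave out Iglc3 and Iglc4. As a second reading, chosen after seeing the data and given without a test, the counts of 104 kappa and 3 lambda variable genes gave kappa to lambda ratios of 4.23, 3.35, 4.34 and 7.12 in Control and 3.19, 9.08, 5.59 and 4.74 in treated mice. TTI-101 mouse 2 was again the highest, while TTI-101 mouse 1 was the lowest and treated mice 3 and 4 lay among the Controls.

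The ratio of Ighm to Ighd counts was 2.42, 2.58, 2.30 and 1.46 in Control mice 1 to 4 and 2.29, 12.5, 2.53 and 2.20 in treated mice 1 to 4. Apart from TTI-101 mouse 2 the values of both groups lay within a narrow range, and the log2 means of 1.10 ± 0.374 (SD, n = 4) and 1.83 ± 1.22 (SD, n = 4) did not differ beyond the spread (exact permutation p = 0.457, adjusted 0.668). The log2 difference of 0.733 was 0.127 without TTI-101 mouse 2. The ratio of heavy to light chain counts stood at 2.37, 2.06, 1.93 and 2.01 in Control and 2.57, 2.28, 2.73 and 2.37 in treated mice. Control mouse 1 lay above TTI-101 mouse 2 and level with TTI-101 mouse 4, and the other Controls lay below all treated mice. The log2 difference of 0.25 had an exact permutation p of 0.0857 (adjusted 0.236). With counts per kilobase of gene length, which changes the weight of each heavy-chain gene, the difference was 0.378 (exact permutation p = 0.0286), while per kilobase of the shortest annotated transcript it was 0.17 (exact permutation p = 0.171).

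**Figure D4:**
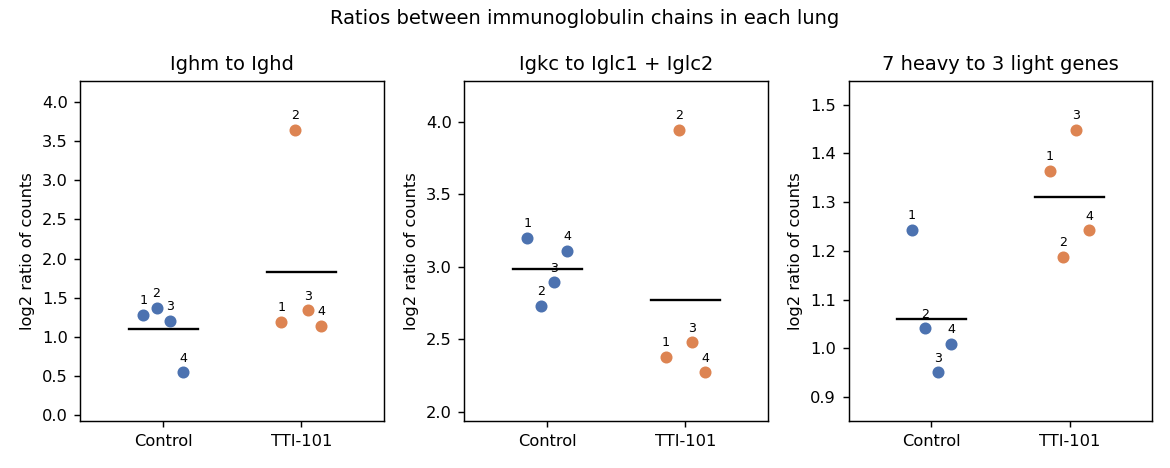
Log2 ratio of counts for Ighm to Ighd, kappa to lambda and heavy to light chains, where numbered points are mice and black lines are group means (n = 4). TTI-101 mouse 2 lies at 3.65 for Ighm to Ighd and 3.94 for kappa to lambda, above all other mice, but not for heavy to light chains.

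Most B cell markers were higher in treated lungs, as were the IgM and IgD genes, at unadjusted p-values. Of 13 B cell markers, all tested, 12 were higher at an unadjusted p under 0.05 and 0 lower, against 3.02% and 3.58% of all genes tested. Their median log2FC was 1.18, and 0 passed an adjusted p under 0.05. The study itself names Ighm, Blk, Cd79a and Cxcr5 from these mice, so that neither this list nor Ighm is independent evidence of the direction. The smallest p-values belonged to Blk, a B cell kinase (1.03, SE 0.24), Cd79a, a signaling chain of the B cell receptor (1.32, SE 0.31), and Cxcr5, the receptor that guides B cells to follicles (1.54, SE 0.40), each with an adjusted p of 0.657 from edgeR. The summed level of all 13 markers spanned 128 to 367 CPM in Control and 292 to 629 CPM in treated lungs.

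To set the constant genes against that, their counts were divided by the summed counts of Ms4a1, Cd79a and Cd79b in the same mouse, a ratio chosen after seeing the data and given without a test. Ighm counts per B cell marker count were 1.59, 1.20, 1.11 and 0.936 in Control mice 1 to 4 and 1.32, 5.06, 1.23 and 1.26 in treated mice 1 to 4. Apart from TTI-101 mouse 2, the treated values lay within the Control range. Ighd had 0.657, 0.465, 0.484 and 0.642 in Control and 0.579, 0.403, 0.487 and 0.570 in treated mice, with overlapping groups. Igha had 2.46, 1.34, 2.21 and 1.53 in Control and 0.721, 2.68, 0.481 and 0.192 in treated mice, so that treated mice 1, 3 and 4 lay below every Control mouse and TTI-101 mouse 2 above them. Igkc showed the same arrangement, at 2.17, 1.33, 1.78 and 1.43 in Control and 0.877, 3.76, 0.693 and 0.720 in treated mice.

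**Figure D5:**
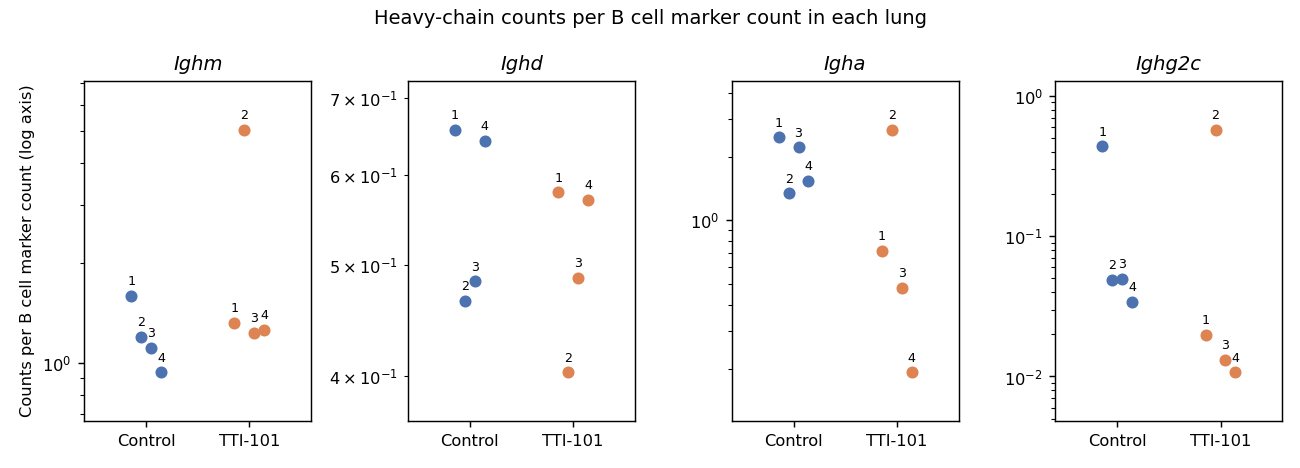
Counts of Ighm, Ighd, Igha and Ighg2c divided by the summed counts of Ms4a1, Cd79a and Cd79b, on log axes that differ between panels, with numbered points for mice. TTI-101 mice 1, 3 and 4 lie at 0.192 to 0.721 for Igha, below the Control range of 1.34 to 2.46, and within the Control range for Ighm.

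Plasma cell markers were called in both directions. Of 12, 11 were tested, with 1 higher and 1 lower at an unadjusted p under 0.05, 0 at an adjusted p under 0.05 and a median log2FC of 0.00. Over all genes tested 3.02% were called higher and 3.58% lower, which is the background for this and the following lists. Irf4, a transcription factor of plasma and activated B cells, was at 0.85 (SE 0.28) and Derl3, a factor of the secretory pathway, at -1.03 (SE 0.40), both with an adjusted p of 0.657 from edgeR. Sdc1, which epithelium also expresses, had a log2FC of -0.55 (SE 0.26, edgeR adjusted p = 0.657). Jchain, the joining chain of IgA and pentameric IgM, had 96.3, 26.1, 28.8 and 22.5 CPM in Control mice 1 to 4 and 49.2, 99.0, 20.4 and 10.0 CPM in treated mice 1 to 4. It was highest in Control mouse 1 and TTI-101 mouse 2, the mice with the highest Igha and IgG levels.

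Of 24 listed genes of class switch recombination, 23 were tested, with 0 higher and 1 lower at an unadjusted p under 0.05 and a median log2FC of -0.15. The gene that was lower was Msh6, a mismatch repair factor (-0.50, SE 0.19, edgeR adjusted p = 0.657). Among cytokines, receptors and factors that direct the isotype, 18 of 22 were tested, 4 were higher and 0 lower, with a median log2FC of 0.35. The smallest p-values were those of Tnfrsf13c, the BAFF receptor (1.47, SE 0.40), Tnfrsf13b, the receptor TACI (0.71, SE 0.24), and Il4ra, a chain of the IL-4 receptor (0.36, SE 0.14), each with an adjusted p of 0.657 from edgeR. Il10, Il13, Il21 and Ifng had too few counts.

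In the list of IgA transport and homing, 1 of 7 genes was higher and 0 lower at an unadjusted p under 0.05, with a median log2FC of -0.11. Pigr, the epithelial carrier of IgA, had 97.1, 157, 178 and 254 CPM in Control mice 1 to 4 and 80.1, 196, 85.3 and 79.5 CPM in treated mice 1 to 4. Its groups overlapped through TTI-101 mouse 2, with a log2FC of -0.64 (SE 0.35, edgeR adjusted p = 0.657). Itgb7, an integrin chain of mucosal lymphocytes, was the gene that passed (0.76, SE 0.24, edgeR adjusted p = 0.657), and Itga4, its partner, was at 0.74 (SE 0.36). Of 9 Fc receptor genes tested among 11, 1 was higher and 0 lower, with a median log2FC of 0.12. That gene was Fcmr, the receptor for IgM on B cells (1.48, SE 0.44, unadjusted p = 0.0064 and adjusted p = 0.657 in edgeR). Fcgrt, which recycles IgG, was at 0.32 (SE 0.19) and Trim21, a cytosolic antibody receptor, at 0.29 (SE 0.24).

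Markers of other tissue that a lung sample could hold were read beside these values. Of 7 red blood cell markers, 5 were tested and 4 were higher at an unadjusted p under 0.05, with a median log2FC of 2.50 and summed levels of 58.5 to 264 CPM in Control and 205 to 1590 CPM in treated lungs. The 7 T cell markers had 0 higher and 0 lower and a median of 0.77. Of 6 genes of lymph node stroma and high endothelial venules, 3 were tested with 0 higher and 0 lower, and Ccl19, Glycam1 and Madcam1 had too few counts. Among 9 markers of B cell precursors and thymus 1 was tested, with 0 called. Of 5 muscle and heart markers 4 were tested with 0 called and a median of 0.81, and of 8 lung markers 1 was lower, Scgb1a1 of club cells (-0.75, SE 0.33, edgeR adjusted p = 0.657). The part of blood or of other cells in the levels of the constant genes was not tested.

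Finally, the constant genes were compared with each other and with other genes by Pearson's r of log2 CPM over the 8 mice, as a description across libraries that share depth and cell makeup. Ighg1, Ighg2b and Ighg2c followed each other with r of 0.94 to 0.95, Ighd followed Iglc2 (r = 0.93) and Ighm followed Igkc (r = 0.89), while Ighd and Igha were nearly unrelated (r = 0.07). The genes outside the immunoglobulin loci most like Ighm were Rgs2 (r = 0.982), Mrnip (r = 0.961) and Foxp3 (r = 0.955). Mrnip, at 0.384 to 1.80 CPM, and Foxp3, at 0.256 to 2.16 CPM, had few counts. All genes named here were picked as the highest r among all genes tested, over only 8 mice. Those most like Ighd were H2-Ob (r = 0.993), Sh2d2a (r = 0.991) and Gm10734 (r = 0.990). For Ighg2b they were Scimp (r = 0.958), Tnfrsf11b (r = 0.903) and Jchain (r = 0.903). For Igha they were Elp6 (r = 0.952), Gm14286 (r = 0.944) and Gm48835 (r = 0.939), and for Igkc A230050P20Rik (r = 0.971), Slc17a9 (r = 0.971) and Flcn (r = 0.965).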

How the data were processed

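RNA was extracted from homogenized whole lung, and poly(A) libraries were made with a stranded kit. The authors deposited unnormalized whole-number counts per Ensembl gene for 54532 genes. Their processing notes name STAR, DESeq2 and mm10, while the counting tool and its strand setting were not given in the sources used here. Annotation and sequences were from GENCODE M21 (GRCm38).

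In R 4.3.3, edgeR 4.0.16 kept 17138 genes (filterByExpr, minimum count of 10), scaled libraries by TMM and tested the groups by its robust quasi-likelihood test, with Benjamini-Hochberg adjustment over all genes tested. CPM use the TMM library sizes. Shares and log2 ratios of counts, with 0.5 added to the count for log2 shares, were compared by exact permutation tests (scipy 1.17.1) over 70 assignments of mice. Nothing in the labels gives a batch or says that mice with the same number in both groups belong together. Deviations from the group means of same-numbered mice correlated at 0.393, 0.0822, 0.1585 and 0.0707. Those of differently numbered mice correlated at -0.4211 to 0.1668. The p-values set the difference between the groups against the variation between these mice.

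The members, the gene lists and the comparisons were chosen with earlier results of these data known. Genes named from a list are the 3 with the smallest p or were untested, with Jchain added after its values were seen, and those named as most like a member have the highest r. Of the B cell and class switch lists, 1 gene each is not reported here and was left out of counts, sums and ratios. Alternatives were DESeq2 1.42.0, limma-voom 3.58.1, other scalings and filters, counts per kilobase, log2 shares, counts pooled over mice, totals over all constant genes, a block for the mouse number and each mouse left out. Ratios to B cell markers and of variable genes were added after seeing the data. A setting that left out the 2 mice with the highest IgG counts was also tried. Some constant genes passed an adjusted p under 0.05 in it. It was not used, since it picks mice by a measured outcome. On simulated data edgeR, limma-voom and DESeq2 each recovered 200 of 200 changed genes. Recovery at the spread between these mice, or at counts as low as those of Ighg1 and Ighg3, was not tested. With 4 mice a group no exact p can be under 0.0286.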

Additional observations from a re-analysis of the deposited data

Results flagged for a closer look

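Of 42 groups of 4 mice checked for a value far from the others (Dixon's test at 95%), 14 held such a mouse. For normally distributed values chance gives about 1 in 20, or 2.10 groups. Whether these levels, shares and ratios are so distributed was not tested. The values come from the same mice and related genes, so that these flags are not separate events.

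Control mouse 1 was far above the other Controls in Ighg1 (15.4 CPM against 0.512 to 0.956), Ighg2b (56.8 CPM against 2.37 to 3.83) and Ighg2c (60.3 CPM against 1.41 to 4.44). As shares of heavy-chain counts, the same mouse had 1.96% Ighg1, 7.23% Ighg2b and 7.68% Ighg2c. TTI-101 mouse 2 was far above the other treated mice in Ighg1 (5.70 CPM against 0.730 to 0.904) and Ighg2c (75.0 CPM against 2.07 to 4.86), and in the shares of Ighg1 (0.481%) and Ighg2c (6.32%).

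TTI-101 mouse 2 also had a log2 kappa to lambda ratio of 3.94 against 2.27 to 2.48 in the other treated mice, a log2 Ighm to Ighd ratio of 3.65 against 1.14 to 1.34, and an Iglc2 level of 15.0 CPM against 20.9 to 21.9. In addition, it held 27 counts of Ighe, the gene of the IgE heavy chain, which the comparisons did not use and which had 0 to 3 counts in the Controls. Control mouse 2 had an IgM share of 38.1%, against 27.9% to 29.1% in the other Controls. What sets these mice apart was not tested.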

How the results depend on the processing

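The log2 fold changes of Ighm, Ighd, Igkc, Iglc1 and Iglc2 kept their sign in edgeR's other scalings and filters, limma-voom, DESeq2 and the fit with a replicate block. With limma-voom Ighg2b was at 0.24 and Ighg2c at -0.08, and in the fit with the replicate block Ighg2b was at 0.42, the opposite signs to the values reported. Ighg1 moved from -1.14 to -0.47 with limma-voom and -0.06 with the block. The cause was not tested. No constant gene passed an adjusted p under 0.05 in any of these settings or with any single mouse left out. DESeq2 gave no adjusted p for Ighg1, Ighg2b and Ighg2c, and its adjusted p for Ighm was 0.1117. A filter of 10 counts in every library removed Ighg1 and Ighg3, which then have no value.

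With the replicate number as a block, a pairing the labels do not give, Iglc1 (0.76) was also called at an unadjusted p under 0.05, so that 4 members were. In that fit 1298 of 17138 genes tested were called, against 1132 without the block. The differences in share stayed at 24.3 points for IgM, -25.8 points for IgA and -28.5 points for switched chains, with an exact sign-flip p of 0.125, the smallest that 4 pairs allow. The log2 heavy to light chain ratio passed 0.05 with counts per kilobase (0.378, exact permutation p = 0.0286) but not per kilobase of the shortest transcript, chosen after seeing the data (0.17, exact permutation p = 0.171).

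With each mouse left out in turn, the count of constant genes at an unadjusted p under 0.05 ranged from 3 to 5, the 5 being reached without Control mouse 1. Calls over all genes tested moved as well, from 422 of 17449 without TTI-101 mouse 3 to 2498 of 17533 without TTI-101 mouse 2. Without Control mouse 1 they were 2393 of 17406. Log2 fold changes spanned -2.41 to 1.54 for Ighg1, -1.53 to 2.34 for Ighg2b, -2.31 to 2.69 for Ighg2c, -0.46 to 0.81 for Ighg3 and -0.61 to 0.50 for Igha. The difference in share ranged from 22.3 to 26.7 points for IgM, -28.4 to -21.7 points for IgA, -33.2 to -23.6 points for switched chains, 1.24 to 9.01 points for IgD, -1.90 to 0.275 points for Ighg2b, -2.28 to 0.743 points for Ighg2c and -0.242 to 0.0663 points for Ighg3. The log2 ratios ranged from -0.606 to -0.0481 for kappa to lambda, 0.127 to 0.963 for Ighm to Ighd and 0.204 to 0.31 for heavy to light chains. The shares of IgM, IgA and switched chains did not pass 0.05 with 7 mice because an exact test of 3 against 4 cannot.

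Ighg3 had as few as 1 count in a library and Ighg1 as few as 8, so that their changes are poorly bounded. The shares also depend on how reads from near-identical IgG stretches were assigned, which the deposited counts do not show.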
